A study of Rattus norvegicus with 8 samples.

Results

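The miRNAs of the imprinted Dlk1-Dio3 locus were described in miRNA sequencing libraries of bone marrow mesenchymal stem cells (BMSCs) from rat, a stromal culture that can differentiate into osteoblasts, adipocytes and chondrocytes. Members were taken by name: a row of the deposited table belonged to the cluster when its name, without the arm (5p or 3p, the strand of the hairpin the mature miRNA comes from), equalled 1 of 46 miRNA names of the locus. Of these names 38 had a row, and they gave 59 mature arms among the 487 miRNAs of the table. The names miR-299b, miR-377, miR-381, miR-543, miR-544, miR-679, miR-758 and miR-770 had no row and were not analysed here. In RefSeq annotation of the rat assembly GRCr8, 45 of the 46 names lie between Dlk1 and Dio3 on chromosome 6, and miR-679 was not matched there. Order along the locus was taken from that assembly, which is not the build of the deposited data, so no coordinates are given.

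The study compared 4 BMSC samples that had received dexamethasone, a synthetic glucocorticoid, at 10 µM for 48 h with 4 control samples, and asked how miRNA levels change under the treatment. The sources used here do not give the strain, sex and age of the rats, the passage of the cells or what the control cells received. They also do not say whether replicates were separate animals or cultures, so the p-values cover only variation among these 8 samples, which may be technical. Total counts were 1377881 to 1521505 in dexamethasone libraries and 1835256 to 2639007 in control libraries, with all treated libraries the shallower ones. A count of 0 allows up to 3 counts, or 1.14 to 2.18 CPM (counts scaled to the library total), a limit for counting error only. The 8 mesenchymal marker miRNA names (among them miR-199a, miR-214 and miR-143) were all detected and summed to 234847 to 263341 CPM in dexamethasone samples and 206415 to 218659 CPM in control samples. Their arms did not move together: of 12 tested, 4 fell, among them miR-143-3p (−0.30 on the log2 scale), and 3 rose, among them the very abundant miR-21-5p (0.58) and miR-199a-3p (0.21), with a median log2 fold change of −0.14. The 6 haematopoietic names (such as miR-142 and miR-223) summed to 51.8 to 68.2 CPM with dexamethasone and 36.4 to 49.8 CPM in control, without overlap. Of their 2 tested arms 1 rose, miR-142-3p (0.54 on the log2 scale), and 0 fell.

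The Dlk1-Dio3 locus is an imprinted domain. The paternal chromosome expresses the protein-coding genes Dlk1, whose product restrains adipocyte differentiation, Rtl1, a gene derived from a retrotransposon, and Dio3, which inactivates thyroid hormone. The maternal chromosome expresses long noncoding RNAs, among them Meg3, and one of the largest groups of miRNA hairpins in mammals, known for high expression in brain, placenta and embryo. A mature miRNA recognises its targets mainly through the seed, bases 2 to 8 from its 5′ end.

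The sequences of the 8 arms that fell under dexamethasone, and of miR-382-5p and miR-411-5p, close to them in level or position, that did not pass the test, are given here so that their seeds can be compared. They are printed 5′ to 3′ from RefSeq (GRCr8), with the seed in capitals, in the order of the hairpins along the locus.
miR-431: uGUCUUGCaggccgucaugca
miR-127-3p: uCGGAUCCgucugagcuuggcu
miR-434-3p: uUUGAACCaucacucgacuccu
miR-370-3p: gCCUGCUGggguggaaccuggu
miR-379-5p: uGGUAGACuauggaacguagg
miR-411-5p: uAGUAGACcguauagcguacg
miR-382-5p: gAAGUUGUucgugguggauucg
miR-134-5p: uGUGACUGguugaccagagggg
miR-541-5p: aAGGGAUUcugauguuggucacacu
miR-409b: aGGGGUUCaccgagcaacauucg

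A RefSeq sequence was found for 57 of the 59 cluster arms and for 443 of the 487 miRNAs in the table. Of the 17 arms abundant enough to be tested, 16 had a sequence, miR-136-5p being the exception, and those 16 carried 16 distinct seeds. None of these 16 shared its seed with another matched miRNA of the table. Among the less abundant arms, miR-329-3p shared the seed ACACACC with miR-362-3p, and miR-370-5p shared AGGUCAC with miR-1193-3p.

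Cluster miRNAs were a small fraction of the libraries. They held 1005, 1119, 973 and 1006 counts in dexamethasone replicates 1 to 4, and 2484, 2219, 1608 and 2106 counts in control replicates 1 to 4. Scaled to depth, the summed level was 694, 735, 685 and 730 CPM with dexamethasone (711 ± 25.6, SD, n = 4), against 941, 945, 876 and 947 CPM in control (927 ± 34.1, SD, n = 4). Every dexamethasone sample lay below every control sample, and the summed share was 0.0711% of counts with dexamethasone and 0.0927% in control. In bulk samples such as these, fewer cells of a type and less of an RNA per cell cannot be told apart.

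Of the 59 arms, 17 from 15 hairpins passed the abundance filter and were tested together with the other miRNAs of the table, 245 in all. These 17 held 94.6% of the cluster's counts. Of them 8 fell with dexamethasone (edgeR quasi-likelihood test, Benjamini-Hochberg adjusted p under 0.05), 0 rose and 9 did not pass the threshold. Among all 245 tested miRNAs, 21.2% fell and 24.9% rose by the same rule. At an unadjusted p under 0.05 the cluster had 9 arms, all lower, against 23.3% lower of all tested miRNAs. The DESeq2 Wald test called 7 arms lower and 0 higher, against 21.6% of all tested miRNAs lower and 21.6% higher.

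All 17 estimated fold changes lay below 0, against 122 of the 245 tested miRNAs (49.8%). Their median log2 fold change was −0.30, against 0.0049 over all tested miRNAs, and they ran from −1.54 for miR-370-3p to −0.04 for miR-136-5p. In 7 of the 17 arms every dexamethasone sample lay below every control sample, a pattern seen in 20.4% of all tested miRNAs. The filter asked for 5.96 CPM in at least 4 samples. All 4 control samples reached it, but not all 4 dexamethasone samples, for miR-370-3p, miR-493-5p, miR-369-5p, miR-434-5p and miR-300-3p. The dexamethasone samples that reached it numbered 1, 1, 3, 3 and 2, in that order. Of these 5, only miR-370-3p is among the 8 arms that fell, and the counts and the median over the 17 arms are in part set by this selection.

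**Figure D1:**
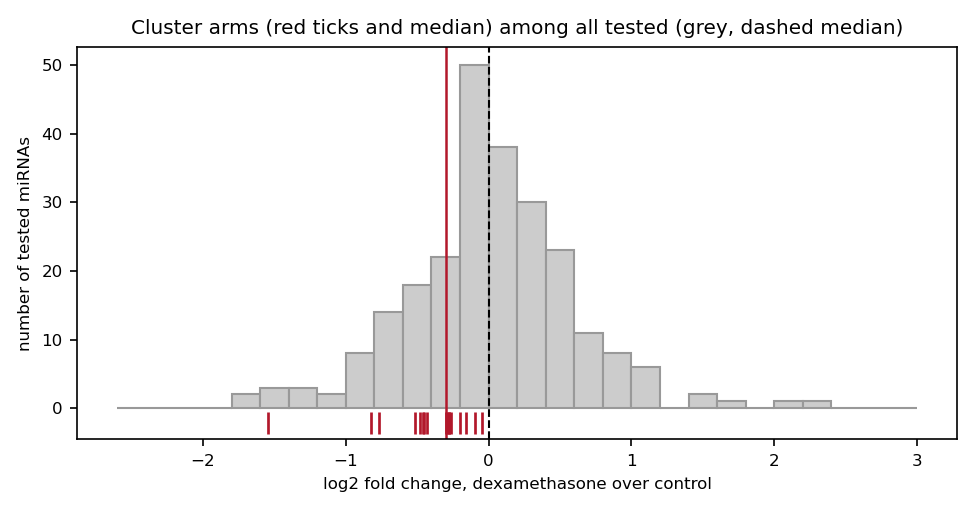
Histogram of the log2 fold change, dexamethasone over control (x axis), for the 245 tested miRNAs (y axis, number of miRNAs), with the 17 cluster arms as red ticks below. The red line is the cluster median of −0.30 and the dashed line the median over all tested miRNAs of 0.0049. All red ticks lie left of 0.

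The 17 arms were not independent pieces of evidence, since several come from the same hairpin or neighbouring hairpins. In order along the locus they fell into 3 stretches: the Meg3 side before Rtl1, the hairpins at Rtl1 and on to miR-370, and the long run of hairpins known as the miR-379 to miR-410 cluster. The first stretch had 1 tested arm, the second 7 and the third 9.

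**Figure D2:**
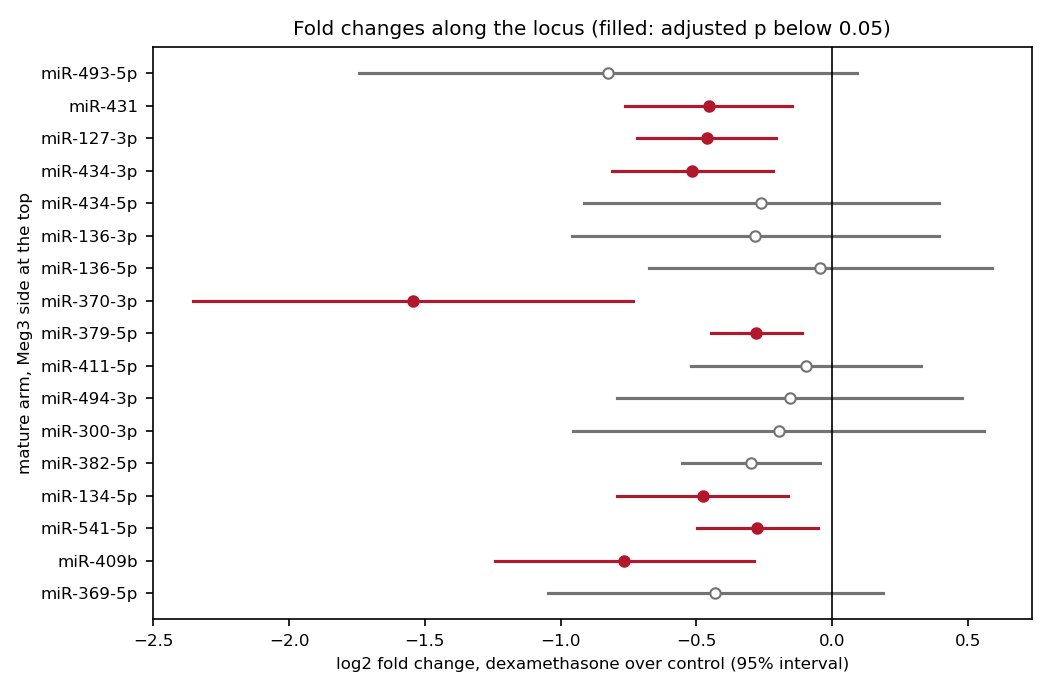
Log2 fold change, dexamethasone over control (x axis), of the 17 tested arms in their order along the locus, with the Meg3 side at the top. Points are edgeR estimates, bars their 95% intervals, and filled red points have an adjusted p below 0.05. Arms that fell lie in both the Rtl1 and miR-370 stretch and the miR-379 to miR-410 stretch, and miR-370-3p has the lowest estimate.

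On the Meg3 side, the arms summed to 5.52, 10.5, 12.7 and 9.43 CPM with dexamethasone (9.53 ± 2.99, SD, n = 4), against 19.3, 15.8, 12.0 and 16.6 CPM in control (15.9 ± 3.03, SD, n = 4), and the groups overlapped in 1 dexamethasone and 1 control sample. Its only tested arm, miR-493-5p, had 3.45, 1.31, 7.74 and 4.35 CPM with dexamethasone and 10.6, 5.96, 6.54 and 6.74 CPM in control. The third dexamethasone sample exceeded 3 of the 4 control samples. The estimate was −0.83 ± 0.42 on the log2 scale (SE, n = 4 each, 95% interval −1.74 to 0.09, edgeR adjusted p = 0.131), so a fall was not detectable with this spread.

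The second stretch includes hairpins transcribed antisense to Rtl1. In mouse, miR-127, miR-431, miR-434 and miR-136 pair perfectly with the Rtl1 transcript and repress it. The arms of this stretch summed to 211, 208, 209 and 211 CPM with dexamethasone (210 ± 1.49, SD, n = 4), against 304, 315, 270 and 309 CPM in control (300 ± 20.1, SD, n = 4). The groups did not overlap, and 4 of the 7 tested arms fell, against 21.2% of all 245 tested miRNAs. Among these 4 is miR-370-3p, which reached the filter's cutoff in 4 control samples and 1 dexamethasone sample. The count is in part set by that selection. The median log2 fold change over the 7 was −0.46.

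The most abundant arm at Rtl1 was miR-127-3p, with 97.3, 106, 92.2 and 84.9 CPM with dexamethasone, against 139, 150, 112 and 133 CPM in control. All treated samples were lower than all controls. It fell by 0.46 on the log2 scale (SE 0.12, n = 4 each, 95% interval −0.72 to −0.21, edgeR adjusted p = 0.00665).

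First in order along the locus among the tested arms of this stretch, miR-431 had 44.2, 50.0, 52.1 and 67.5 CPM with dexamethasone and 69.7, 80.0, 63.2 and 84.0 CPM in control. The highest treated sample, replicate 4, lay above the lowest control sample, replicate 3, and it was the only one of the 8 arms that fell whose groups overlapped. The log2 fold change was −0.46 ± 0.14 (SE, n = 4 each, 95% interval −0.76 to −0.15, edgeR adjusted p = 0.0193).

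Beyond miR-127, miR-434-3p had 40.0, 31.5, 33.1 and 30.5 CPM in treated cells, against 48.9, 45.1, 51.2 and 52.1 CPM in control cells, with no overlap. It fell by 0.51 on the log2 scale (SE 0.14, n = 4 each, edgeR adjusted p = 0.00826). The opposite arm, miR-434-5p, averaged 10.3 CPM with dexamethasone and 12.4 CPM in control, and its estimate of −0.26 ± 0.30 (SE) did not pass the threshold (edgeR adjusted p = 0.529).

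Both arms of miR-136 were near the filter. For miR-136-3p the means were 5.19 CPM with dexamethasone and 6.56 CPM in control, at a log2 difference of −0.28 ± 0.31 (SE, edgeR adjusted p = 0.515). For miR-136-5p they were 5.90 CPM with dexamethasone and 6.18 CPM in control, with −0.04 ± 0.29 (SE, edgeR adjusted p = 0.929).

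The lowest fold change of the cluster was that of miR-370-3p. Its level was 1.38, 1.97, 3.52 and 6.53 CPM in treated cells, against 10.2, 11.1, 8.72 and 9.44 CPM in controls, from 2, 3, 5 and 9 counts in dexamethasone libraries and 27, 26, 16 and 21 counts in control libraries. The treated samples spread widely and still lay below all controls. The mean was 3.35 ± 2.30 CPM with dexamethasone and 9.86 ± 1.01 CPM in control (SD, n = 4 each), a log2 fold change of −1.54 ± 0.37 (SE, 95% interval −2.35 to −0.74, edgeR adjusted p = 0.00488). The estimate rests on 19 treated counts, and it was −2.04 without the fourth dexamethasone replicate and −1.31 without the first, the extremes over the alternative settings in which the arm was tested.

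The third stretch, miR-379 to miR-410, carried most of the cluster's counts. This run of hairpins, apart from those on the opposite strand such as that of miR-409b, is processed from a maternally expressed noncoding transcript. In neurons of rats its miRNAs, miR-134 among them, are induced by activity. The arms of the stretch, miR-409b included, summed to 477, 517, 463 and 509 CPM with dexamethasone (492 ± 25.7, SD, n = 4), against 618, 614, 594 and 621 CPM in control (612 ± 12.2, SD, n = 4), without overlap. Of the 9 tested arms 4 fell, against 21.2% of all 245 tested miRNAs. The median log2 fold change over the 9 was −0.28.

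The most abundant cluster miRNA was miR-379-5p, the first of the run. It had 168, 169, 163 and 167 CPM with dexamethasone and 202, 202, 209 and 212 CPM in control. Spread within each group was small (167 ± 2.45 CPM with dexamethasone and 206 ± 5.21 CPM in control, SD, n = 4 each), and the groups did not overlap. The log2 fold change was −0.28 ± 0.08 (SE, 95% interval −0.45 to −0.11, edgeR adjusted p = 0.00983).

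The hairpin next to it encodes miR-411-5p, which had 36.6, 42.7, 36.6 and 20.3 CPM with dexamethasone and 31.5, 36.6, 40.9 and 40.9 CPM in control. The treated samples had both the highest and the lowest value. Its estimate was −0.10 ± 0.20 (SE, 95% interval −0.52 to 0.33, edgeR adjusted p = 0.721), and without the fourth dexamethasone replicate it was 0.11. In the sequences printed above, the 2 miRNAs are 21 bases long and have 14 bases in common. They differ at 7 positions counted from 1 at the 5′ end of miR-379-5p (G2A, U9C, A10G, G12A, G13U, A15G and G20C, with the base of miR-379-5p first), and of these only G2A lies in the seed. The difference between their fold changes was not tested.

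Further along, miR-134-5p, which in rat hippocampal neurons represses Limk1 and limits the size of dendritic spines, had 44.9, 49.3, 42.2 and 48.6 CPM with dexamethasone. In control it had 75.8, 67.3, 49.6 and 67.9 CPM. The highest treated sample lay just below the third control sample, and well below the other control samples. The log2 fold change was −0.48 ± 0.14 (SE, n = 4 each, 95% interval −0.79 to −0.16, edgeR adjusted p = 0.0168).

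The adjacent hairpin gives miR-382-5p, with 75.2, 90.7, 67.5 and 88.5 CPM in treated samples and 104, 108, 88.8 and 102 CPM in controls. The groups overlapped in 1 treated and 1 control sample. Its estimate of −0.30 ± 0.12 (SE, n = 4 each, 95% interval −0.55 to −0.05) lay just outside the threshold (edgeR adjusted p = 0.0522), and it passed in 7 of 17 alternative settings.

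The arm miR-541-5p had 82.1, 91.4, 87.2 and 101 CPM with dexamethasone, against 106, 111, 127 and 103 CPM in control. The groups lay next to each other without overlap. It fell by 0.28 on the log2 scale (SE 0.10, n = 4 each, 95% interval −0.50 to −0.05, edgeR adjusted p = 0.0436). It is the least secure of the 8: it passed in 7 of 17 alternative settings, and with DESeq2 its adjusted p was 0.0556. Leaving out control replicate 1, 2 or 3 or dexamethasone replicate 1, 2 or 3 each left it short of the threshold, at an edgeR adjusted p of 0.0538 to 0.0992.

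The arm miR-409b had 8.28, 13.8, 14.8 and 19.6 CPM with dexamethasone and 26.1, 26.0, 22.9 and 22.0 CPM in control, without overlap. It fell by 0.77 on the log2 scale (SE 0.22, n = 4 each, 95% interval −1.24 to −0.29, edgeR adjusted p = 0.0122). This miRNA lies on the strand opposite miR-409a, and all 20 bases of miR-409a-3p are the reverse complement of bases within the 23 of miR-409b.
miR-409b: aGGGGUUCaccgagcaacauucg
miR-409a-3p: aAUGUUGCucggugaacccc
The table gave 302 counts to miR-409b and 2 to miR-409a-3p. The sources used here do not say whether counting used strand, so the 2 cannot be told apart with certainty. RefSeq also has an antisense mature miRNA without a row in the table for miR-434-3p (miR-3543) and for miR-369-5p (miR-3578).

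The other tested arms of the run did not pass the threshold. For miR-369-5p the means were 9.49 ± 3.15 CPM with dexamethasone and 13.2 ± 2.65 CPM in control (SD, n = 4 each), at a log2 difference of −0.43 ± 0.28 (SE, edgeR adjusted p = 0.242). For miR-300-3p they were 7.75 CPM with dexamethasone and 9.02 CPM in control, with −0.20 ± 0.35 (SE, edgeR adjusted p = 0.684). For miR-494-3p they were 10.2 CPM with dexamethasone and 11.4 CPM in control, with −0.16 ± 0.29 (SE, edgeR adjusted p = 0.694). Intervals that reach above 0 do not show that these arms stayed level.

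**Figure D3:**
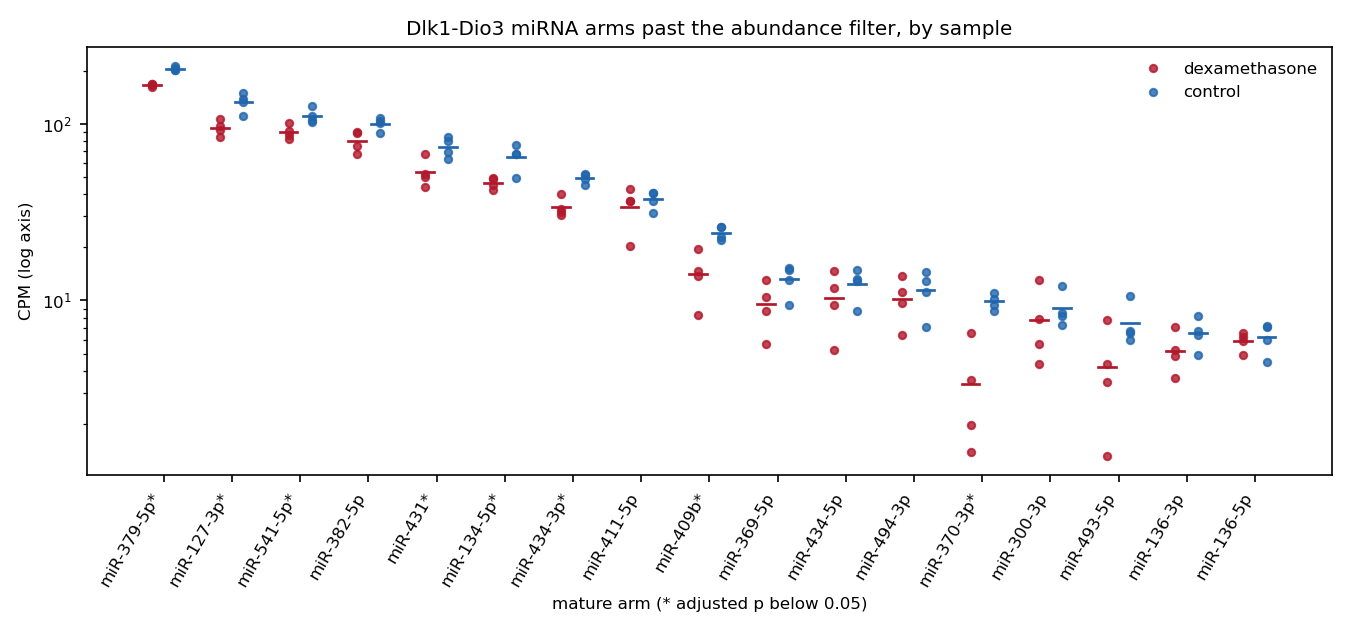
Level in CPM (y axis, log scale) of each of the 17 tested cluster arms (x axis, most abundant first) in the 4 dexamethasone samples (red, left) and the 4 control samples (blue, right); horizontal bars are group means and asterisks mark an adjusted p below 0.05. Some abundant arms separate by a small step, as for miR-379-5p (167 against 206 CPM), while the points of miR-382-5p, miR-431 and miR-411-5p overlap. Below about 15 CPM the points of most arms overlap.

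Calls can also be counted by abundance. Of the 8 arms with a mean of at least 30 CPM in control, 6 fell, against 46 of 161 (28.6%) of all tested miRNAs at that level. Of the 9 arms under 30 CPM, 2 fell (miR-370-3p and miR-409b), against 6 of 84 (7.14%) of all tested miRNAs. Among these 9 are miR-370-3p, miR-493-5p, miR-369-5p, miR-434-5p and miR-300-3p, where all 4 control samples but fewer dexamethasone samples reached the filter's cutoff. Both the 9 and the 2 are thus in part set by that selection. The 2 exceptions among the abundant arms were miR-382-5p and miR-411-5p. Only 2 of the 8 arms that fell, again miR-370-3p and miR-409b, changed by 1.5-fold or more.

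The range of the share held by the leading arms overlapped between groups. The 5 most abundant arms, miR-379-5p, miR-127-3p, miR-541-5p, miR-382-5p and miR-431, held 67.3 to 69.7% of the cluster's counts in dexamethasone samples and 65.9 to 68.8% in control samples. The share of miR-379-5p was 23.5% with dexamethasone and 22.3% in control, that of miR-127-3p was 13.4% with dexamethasone and 14.4% in control, and that of miR-370-3p was 0.469% with dexamethasone and 1.06% in control. Library preparation captures some miRNAs better than others, so these are shares of counts and not of molecules.

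**Figure D4:**
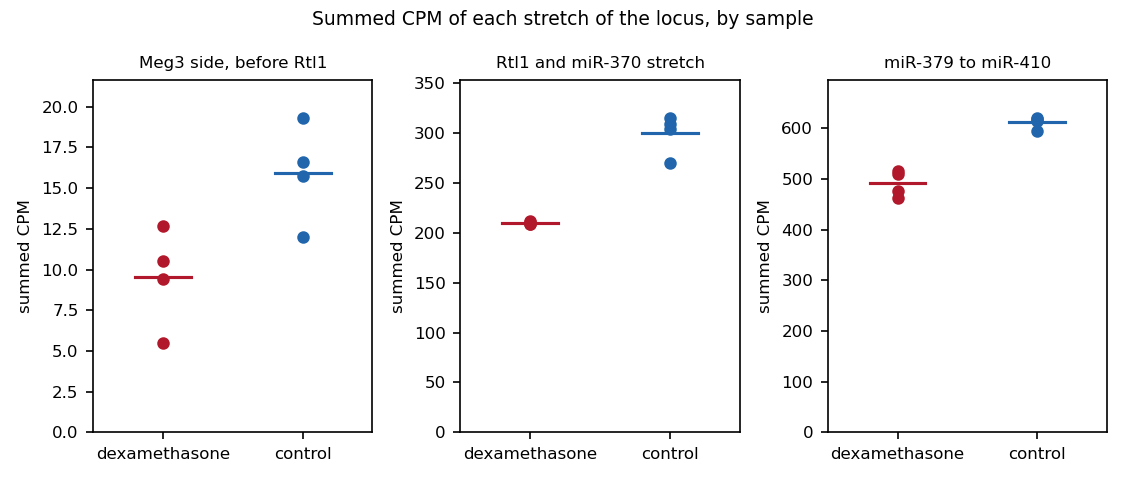
Summed CPM (y axis, from 0) of all cluster arms in each of the 3 stretches of the locus, in dexamethasone (red, left) and control (blue, right) samples; points are samples and bars group means. The groups are separate in the Rtl1 and miR-370 stretch (208 to 211 against 270 to 315 CPM) and in the miR-379 to miR-410 stretch (463 to 517 against 594 to 621 CPM), and overlap on the Meg3 side.

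A hairpin gives a 5p and a 3p arm, of which usually one is kept. In 21 hairpins of the cluster both arms were listed, with more 5p counts in 14 and more 3p counts in 7. Some of these rest on few counts over all libraries, such as miR-337 with 12 and miR-380 with 21. In both, the larger arm was not the same in dexamethasone and control. In miR-136 the 5p arm led by 90 counts to 88. In miR-379 the 5p arm held 98.8% of the counts with dexamethasone and 99.3% in control, and in miR-127 the 3p arm held 99.3% with dexamethasone and 98.5% in control. Balance was closer in miR-434, where the 3p arm held 76.8% with dexamethasone and 79.6% in control, and in miR-136, where the 5p arm held 53.1% with dexamethasone and 49.1% in control.

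The ratio of the arms could be tested in miR-136 and miR-434, whose arms both passed the filter. In 0 of these 2 hairpins did it change (limma, Benjamini-Hochberg adjusted p under 0.05; also 0 at an unadjusted p under 0.05), against 1.89% of the 53 hairpins tested across the table. The log2 ratio of 5p to 3p differed by 0.27 between dexamethasone and control in miR-136 (95% interval −0.40 to 0.95, limma adjusted p = 0.631) and by 0.23 in miR-434 (95% interval −0.43 to 0.89, limma adjusted p = 0.631).

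The remaining 42 arms did not pass the filter, and none had more than 76 counts over all 8 libraries. In 20 of them the total was under 10 counts, 8 had no count in any dexamethasone library, and 4 had none in any control library. Pooled over each group, 27 were lower and 15 higher with dexamethasone in CPM, against 118 lower of all 242 miRNAs below the filter (48.8%). They summed to 33.8, 41.4, 40.1 and 45.0 CPM in dexamethasone samples and 58.0, 40.0, 44.1 and 52.6 CPM in control samples, so the groups overlapped.

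The 5 with the most counts were miR-376c-3p, miR-540-3p, miR-341, miR-299a-5p and miR-154-5p. The hairpins of the miR-376 family are known for adenosine-to-inosine editing in mouse and human brain, and miR-376c-3p had 28 counts with dexamethasone and 48 in control, in libraries of unequal depth. Counts were 16 with dexamethasone and 54 in control for miR-540-3p, and 12 with dexamethasone and 44 in control for miR-341. For miR-299a-5p there were 18 with dexamethasone and 32 in control, and for miR-154-5p 13 with dexamethasone and 21 in control. When all 487 miRNAs were fitted without a filter, 0 of these 42 arms passed the adjusted threshold in either direction with edgeR, against 3 lower and 8 higher of the 242 miRNAs below the filter. At an unadjusted p under 0.05, 2 of the 42 were lower and 1 higher, against 10 lower and 18 higher of the 242, and the authors' deposited table calls 0 of them at its adjusted p.

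The authors' deposited table calls 7 of the 59 arms lower and 0 higher at an adjusted p under 0.05, and it calls 12.5% of its 487 miRNAs lower. Those 7 are the 8 arms that fell here without miR-541-5p. In the authors' deposited table the log2 fold change was −0.48 for miR-127-3p, −0.48 for miR-134-5p and −1.31 for miR-370-3p. The edgeR estimates here were −0.46, −0.48 and −1.54, in that order.

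Names of the locus outside the 46 were looked at as well. Of 18 such names, 3 had rows, and none of these passed the filter. The hairpin of miR-1247 lies next to Dio3 at the far end of the locus. It was named after its values were seen. Its 3p arm had 11, 8, 13 and 15 counts in dexamethasone libraries and 6, 4, 0 and 3 in the deeper control libraries. Its 5p arm had 5, 7, 13 and 17 counts with dexamethasone and 1, 11, 2 and 1 in control. Treated libraries were higher than all control libraries for the 3p arm, and overlapped with the second control library for the 5p arm. In the fit without a filter, in which 12.5% of all 487 miRNAs rose, the log2 fold change was 2.48 ± 0.51 for miR-1247-3p (SE, edgeR adjusted p = 4.18e-04) and 2.10 ± 0.58 for miR-1247-5p (SE, edgeR adjusted p = 0.00750). Leaving out 1 library at a time gave 2.16 to 2.89 for the 3p arm and 1.77 to 3.45 for the 5p arm, the 3.45 without the second control library. The other names were at 23 counts with dexamethasone and 31 in control (miR-1193-3p) and at 2 with dexamethasone and 1 in control (miR-667-5p).

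At other imprinted loci, 4 arms were tested. From the Gnas locus, miR-296-3p fell, with an estimate of −0.60 ± 0.13 on the log2 scale (SE, edgeR adjusted p = 0.00316), and so did miR-296-5p, with −0.69 ± 0.21 (SE, edgeR adjusted p = 0.0168), while miR-298-5p had −0.22 ± 0.10 (SE, edgeR adjusted p = 0.0923). At Mest, miR-335 rose by 0.74 ± 0.28 on the log2 scale (SE, edgeR adjusted p = 0.0444), with 93.9 CPM in dexamethasone replicate 1, 35.9 to 48.0 CPM in the other treated samples and 30.2 to 36.0 CPM in control samples. Lower levels with dexamethasone were thus also measured outside the Dlk1-Dio3 locus, and the groups of loci were not tested against each other.

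Marker miRNAs of other cell types were summed in the same way. The endothelial miRNA miR-126a, the listed 1 of 2 endothelial names, summed to 1163 to 1331 CPM with dexamethasone and 1790 to 2000 CPM in control, and both of its arms fell. The muscle names, of which 6 of 9 were listed, summed to 244 to 344 CPM with dexamethasone and 81.4 to 111 CPM in control, and all 3 tested arms rose. Neural names, relevant because the cluster is abundant in brain, were listed for 4 of 6 and summed to 455 to 539 CPM with dexamethasone and 465 to 519 CPM in control, while miR-124 and miR-137 had no row. The neural sums overlapped. Of 3 tested neural arms 1 fell and 0 rose, with a median log2 fold change of 0.23. The arm that fell, miR-129-5p, had 68.5 ± 12.5 CPM with dexamethasone and 101 ± 3.22 CPM in control (SD, n = 4 each). Its log2 difference was −0.54 ± 0.12 (SE, edgeR adjusted p = 0.00300), with all treated samples below all controls. The more abundant miR-128-3p had 405 CPM with dexamethasone and 353 CPM in control, a log2 difference of 0.23 ± 0.10 (SE, edgeR adjusted p = 0.0781). The 9 epithelial names summed to 12.3 to 22.3 CPM with dexamethasone and 12.5 to 17.4 CPM in control, also with overlap. The part of endothelial, muscle, neural and haematopoietic markers in the lower cluster levels was not tested. Library depth was made equal by thinning, and its part was not tested in any other way. With all libraries thinned to 1377881 counts, 7 of 14 tested cluster arms fell and 0 rose, against 22.4% lower and 25.0% higher of the 228 miRNAs tested then.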

How the data were processed

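Per the labels' protocols, RNA came from a Qiagen miRNA kit and the library kit was one for total RNA (VAHTS); the sources used here do not say how short RNAs were selected. Bowtie 1.0 and the build mRatBN7.2 are named per the submitters' processing notes. The deposited table holds whole-number counts and CPM for 487 miRNAs in 8 samples, plus the authors' log2 fold change, p-value and adjusted p-value. The authors' CPM equal counts over the column total to within 4.98e-05. The sources used here do not give the test behind the authors' p-value, the counter or the handling of multiply matching reads.

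The counts went through filterByExpr, TMM scaling and the quasi-likelihood test of edgeR 4.0.16 in R 4.3.3, with treatment as sole term, Benjamini-Hochberg adjustment over 245 miRNAs and a threshold of 0.05. TMM factors ran 0.944 to 1.02 (biological coefficient of variation 10.4%). Standard errors are the estimate divided by the square root of F. Arm ratios were tested with limma 3.58.1 on log2 CPM (prior count 1) in 53 hairpins. Scripts were tested on simulated data. Within groups no pair of libraries was as alike as sampling noise (chi-square per degree of freedom 7.56 to 48.6). Pairs with dexamethasone replicate 1 had 37.0, 48.6 and 48.5, and every other pair lay at 7.56 to 20.5. CPM serve as levels in the text.

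All tested cluster arms, the 5 untested ones with the most counts and all tested arms of the other imprinted loci were named by rule. Members and lists were chosen with earlier results of these data known. Alternatives were RLE, upper quartile and total count scaling, no filter, 10 CPM in at least 4 samples, DESeq2 1.42.0, thinning, a replicate block and leaving out each replicate. A filter on a mean of at least 6 CPM over all samples, and the fits of miR-1247 without single libraries, were added after seeing the data.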

Additional observations from a re-analysis of the deposited data

Results flagged for a closer look

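Of 36 groups of 4 samples (each of the 17 tested arms and the summed cluster level, in each treatment group), 2 had a sample set far from the other 3; chance flags about 1 in 20 such groups. For miR-493-5p, control replicate 1 had 10.6 CPM, against 5.96 to 6.74 CPM in the other control samples. For the summed cluster level, control replicate 3 had 876 CPM, against 941 to 947 CPM in the other control samples. It remained above all dexamethasone samples, and without that library 8 of 15 tested arms fell and 0 rose, against 20.7% lower and 23.7% higher of all 241 miRNAs tested without it.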

How the results depend on the processing

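The number of cluster arms that fell was 7 to 9 in every alternative, with 0 higher and a median of −0.29 to −0.45, while 11.3 to 29.0% of all tested miRNAs fell. Leaving out 1 replicate at a time gave 7 to 8. Of the 8 arms, 7 passed in every alternative in which they were tested (miR-370-3p was not tested at 10 CPM in 4 samples); miR-541-5p missed the threshold in 10 of 17. miR-382-5p passed in 7, and miR-493-5p in 1 (−1.30, edgeR adjusted p = 0.0341, without dexamethasone replicate 3; 0.0341 to 0.321 over its alternatives). Upper quartile scaling moved the median of all miRNAs to −0.15, with 71 lower and 41 higher against 52 and 61, and the cluster to −0.45 with 9 lower. With the added mean filter 9 of 15 fell, against 22.7% of all 242 tested. Estimates above 0 were 0.027 for miR-300-3p after thinning, 0.0020 for miR-494-3p and 0.022 for miR-136-5p without dexamethasone replicate 3, and 0.017 for miR-300-3p and 0.11 for miR-411-5p without dexamethasone replicate 4; the cause was not tested. Over the replicates left out, the lowest were −0.59 for miR-300-3p, −0.33 for miR-494-3p, −0.24 for miR-411-5p and −0.088 for miR-136-5p. Replicate numbers did not pair the samples (same-number correlations −0.21 to 0.08; 1 of 4 numbers matched best with its own). With the replicate block 7 arms fell and 0 rose, with 45 lower and 52 higher in all. Arms under 30 CPM rest on few counts, and changes of the size of miR-379-5p were not detectable there.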

Other observations

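Among the 42 arms below the filter, 3 had every dexamethasone library below every control library in CPM and none the reverse, against 10 (4.13%) and 9 (3.72%) of all 242 miRNAs below the filter; they were picked after their values were seen and did not pass the adjusted threshold without a filter. In dexamethasone replicates 1 to 4, miR-323-3p had 1, 1, 2 and 0 counts, against 5, 5, 5 and 5 in control. For miR-485-5p the counts were 0, 1, 1 and 0 with dexamethasone and 2, 3, 2 and 5 in control. For miR-540-3p they were 3, 5, 4 and 4 with dexamethasone and 20, 18, 7 and 9 in control (edgeR adjusted p = 0.105 without a filter).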
